A study of Homo sapiens with 9 samples.

Results

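SATB1, HMGA1 and HMGA2 encode architectural proteins that bind AT-rich DNA. They are 3 of the 58051 genes in the count table, and all 3 were among the 14513 genes that passed a filter on low counts. SATB1 was chosen because its counts were much lower in p53 KO cells than in either control, so its values in those comparisons are given as a description with no test. HMGA1 and HMGA2 were taken for the class of protein they encode, and their comparisons were tested.

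SATB1 carries CUT-type domains and a homeodomain, binds sites that unwind readily, and anchors chromatin loops there while recruiting histone deacetylases, acetyltransferases and remodelling enzymes. It is best known from developing T cells, and in skin it acts in epidermal progenitors. HMGA1 and HMGA2 are small proteins that grip the minor groove through AT-hooks, bend DNA and help other factors to assemble. Both are abundant in embryos and in many tumours, and the HMGA2 transcript is a classical target of the let-7 microRNAs.

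RNA was sequenced from A431, an epidermoid carcinoma line with endogenous mutant p53, in 3 poly(A) libraries per group. A431 parental (mutp53) cells carried no construct. A431 p53 KO cells had been made by transfecting a GFP CRISPR construct against p53, and A431 Ctrl (mutp53) cells by transfecting the same kind of construct as empty vector. According to the labels, cells were grown as single colonies before plating. A Ctrl or p53 KO library may therefore stand for 1 clone, and clone and genotype cannot be told apart. Nothing in the labels says that the 3 libraries of a group were separate cultures, so p-values measure only the spread between these libraries.

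Counts per library summed to between 19783778 and 29840452. Values are given as counts or as CPM, depth-scaled counts after TMM normalisation between libraries. Ctrl replicate 1 had the smallest total and the lowest mean correlation with its own group, 0.987, against 0.990 to 0.995 for the other 8 libraries, and results are given without it where it moves them. Of 8 squamous epithelial markers, 7 passed the filter, and KRT14 stayed at 0 to 13 counts. Their summed level, most of it EGFR, was 15264 to 18241 CPM in parental, 9750 to 12060 CPM in Ctrl and 14097 to 14809 CPM in p53 KO libraries.

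The SATB1 start farthest upstream lies close to the start of its antisense neighbour on chromosome 3, and the canonical SATB1 start lies farther inside the gene. The DNA before these starts is shown because both RNAs were lower in p53 KO cells. HMGA1 is shown beside them as the member whose RNA was abundant in all groups. The sequences are RefSeq upstream windows on GRCh38.p14, written 5′ to 3′ along the gene's own strand, each ending at the base before the start. Capitals mark GC boxes, which are GGGCGG or its reverse complement CCGCCC, and boxes that touch or overlap appear as 1 run of capitals. The first window precedes the start of the GENCODE canonical SATB1 transcript (chr3:18425340-18425589, minus strand). The second precedes the RefSeq SATB1 start farthest upstream (chr3:18445593-18445842, minus strand). The third precedes a RefSeq start of SATB1-AS1 that is not its canonical start (chr3:18444987-18445236, plus strand). In GENCODE, SATB1-AS1 begins at 18445024, so most of the third window lies inside that gene. The fourth precedes the canonical HMGA1 start (chr6:34236623-34236872, plus strand).
SATB1, canonical start: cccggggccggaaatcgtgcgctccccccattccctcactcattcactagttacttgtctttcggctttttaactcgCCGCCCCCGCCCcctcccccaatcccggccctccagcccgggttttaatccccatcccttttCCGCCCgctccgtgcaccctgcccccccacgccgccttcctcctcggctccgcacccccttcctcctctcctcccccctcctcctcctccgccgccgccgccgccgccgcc
SATB1, farthest upstream start: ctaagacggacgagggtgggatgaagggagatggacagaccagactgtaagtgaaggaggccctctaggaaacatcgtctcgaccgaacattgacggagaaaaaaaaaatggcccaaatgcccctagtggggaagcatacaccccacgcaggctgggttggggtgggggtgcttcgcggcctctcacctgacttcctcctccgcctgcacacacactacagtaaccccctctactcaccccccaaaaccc
SATB1-AS1: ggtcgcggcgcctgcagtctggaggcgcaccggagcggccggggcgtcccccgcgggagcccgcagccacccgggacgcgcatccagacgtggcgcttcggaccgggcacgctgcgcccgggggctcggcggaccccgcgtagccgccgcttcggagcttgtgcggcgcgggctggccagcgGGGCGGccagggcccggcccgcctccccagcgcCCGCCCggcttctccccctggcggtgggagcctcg
HMGA1, canonical start: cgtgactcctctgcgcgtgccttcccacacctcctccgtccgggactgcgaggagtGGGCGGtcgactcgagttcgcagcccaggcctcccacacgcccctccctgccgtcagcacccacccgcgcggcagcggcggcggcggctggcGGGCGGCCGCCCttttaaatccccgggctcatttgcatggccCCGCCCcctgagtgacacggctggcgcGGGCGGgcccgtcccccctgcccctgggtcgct
The canonical SATB1 window held 3 GC boxes and 70% G and C, whereas the farthest upstream window held no GC box and 57.2% G and C. The SATB1-AS1 window held 2 GC boxes and the HMGA1 window 5, with 82% and 74.8% G and C. Not shown are the windows before the SATB1 starts at 18444118 and 18438736, with 1 GC box each and 56.8% and 54% G and C. The second HMGA1 window, also not shown, held 0 GC boxes and 51.2% G and C. Searched on both strands, a GC box was present in 42.6% of 35116 RefSeq windows of this length, and the median window had 58% G and C. None of the 4 windows shown held TATAAA, found in 10.7% of all windows, or a p53 half-site, found in 5.57%. No upstream window was matched for HMGA2.

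SATB1 (ENSG00000182568) lies on chromosome 3 of GRCh38 from 18345377 to 18445621 on the minus strand, with 11 exons in its canonical transcript of 7822 bases. Parental libraries held 298, 276 and 243 SATB1 counts, Ctrl libraries 266, 501 and 491, and p53 KO libraries 24, 33 and 12. In normalised terms the level was 11.4, 10.6 and 11.2 CPM in parental, 13.6, 17.6 and 18.7 CPM in Ctrl and 0.805, 1.26 and 0.595 CPM in p53 KO cells. Each of the 3 p53 KO libraries lay far below the lowest control library, and the parental and Ctrl libraries did not overlap either. The group means were 11.1 ± 0.408 CPM, 16.6 ± 2.71 CPM and 0.885 ± 0.337 CPM (SD, n = 3 each). SATB1 RNA in p53 KO cells was thus 12.5-fold below parental cells, at 7.99% of their level, and 18.8-fold below Ctrl cells, at 5.32%. RNA remained detectable in all p53 KO libraries. In bulk RNA, fewer cells that express a gene and less RNA in each cell cannot be told apart.

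The fitted log2 fold change of SATB1 in p53 KO cells was -3.61 (SE 0.21, 95% interval -4.07 to -3.15) against parental and -4.20 (SE 0.20, 95% interval -4.65 to -3.75) against Ctrl cells. Both comparisons share the p53 KO libraries, and SATB1 was chosen on them. Of the 14513 genes tested, 21 fell further against parental cells and 25 against Ctrl cells. Against parental cells, 9.77% of all genes tested were called higher and 8.36% lower, the limit being an adjusted p-value of 0.05. Against Ctrl cells, 15% were called higher and 14.2% lower. The plot of member fold changes sets SATB1 beside the range of all genes.

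**Figure D1:**
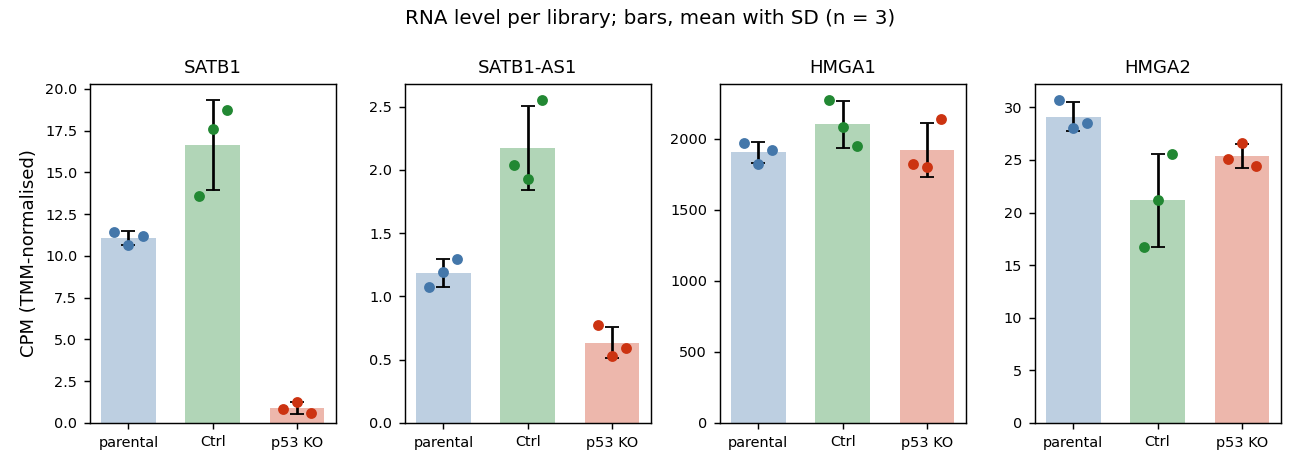
RNA level of the 3 members and of SATB1-AS1 in CPM (linear axes that start at 0 and differ between panels). Points are single libraries, bars are group means and error bars are SD (n = 3). SATB1 lies at 0.595 to 1.26 CPM in the p53 KO libraries and at 10.6 to 18.7 CPM in the 6 control libraries, whereas the HMGA1 libraries of all 3 groups overlap.

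The control lines, both with mutant p53, also differed in SATB1. The gene was chosen for its fall in p53 KO cells, not for this comparison. The same control libraries entered that choice, so the test here is not independent of it. SATB1 in Ctrl cells exceeded its parental level by 0.59 on the log2 scale (SE 0.15, 95% interval 0.26 to 0.92, adjusted p = 0.0192 in the quasi-likelihood test of edgeR, adjusted by the Benjamini-Hochberg method), where 10.6% of all genes tested were called higher and 9.69% lower. The call did not hold when parental replicate 1, 2 or 3 or Ctrl replicate 2 was left out, with adjusted p-values of 0.0597 to 0.0785. Without Ctrl replicate 1, the Ctrl library with the least SATB1, the difference was 0.71 with an adjusted p-value of 0.000560.

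**Figure D2:**
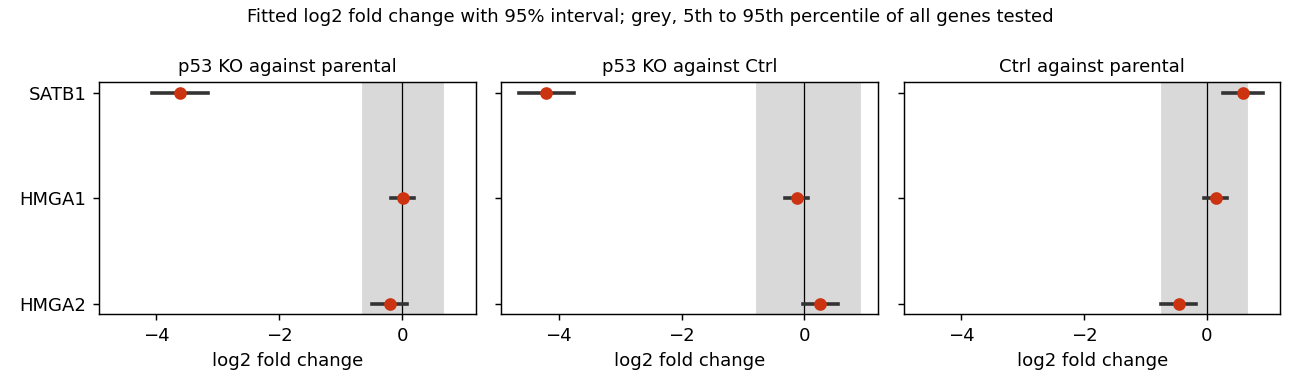
Fitted log2 fold changes of SATB1, HMGA1 and HMGA2 in the 3 comparisons (points) with 95% intervals (bars). The grey band spans the 5th to the 95th percentile of all genes tested, for example -0.64 to 0.67 for p53 KO against parental cells. SATB1 lies far to the left of the band in both p53 KO comparisons, and HMGA1 and HMGA2 lie inside it in all 3.

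SATB1-AS1 (ENSG00000228956), a long noncoding RNA transcribed away from SATB1 on the opposite strand, moved in the same directions. It spans 18445024 to 18923280 on chromosome 3 and overlaps the SATB1 gene by 598 bases, but the annotated exons of the genes share no base. Its counts were 28, 31 and 28 in parental, 40, 55 and 67 in Ctrl and 23, 14 and 12 in p53 KO libraries. The p53 KO libraries were the lowest and the Ctrl libraries the highest, with no overlap between groups. SATB1-AS1 fell in p53 KO cells by 0.88 on the log2 scale against parental (SE 0.23, adjusted p = 0.0247) and by 1.76 against Ctrl cells (SE 0.21, adjusted p = 0.000126). It was higher in Ctrl than in parental cells by 0.88 (SE 0.19, adjusted p = 0.0100). The call against parental cells was lost without parental replicate 1, 2 or 3 or p53 KO replicate 2 or 3, at adjusted p-values of 0.0511 to 0.0936, and the call between the controls was lost without parental replicate 1 (0.0544). The library kit keeps strand, but the strand setting of the counting is not given in the sources used here. How far the 2 RNAs were separated in counting was not tested.

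TBC1D5, a GTPase-activating protein of vesicle transport, runs on the same strand as SATB1 and overlaps it by 99441 bases, with 211 exonic bases in common. Its libraries held 53 to 56.4 CPM in parental, 32.0 to 55.3 CPM in Ctrl and 40.1 to 48.7 CPM in p53 KO cells. TBC1D5 had a log2 fold change of -0.28 against parental (adjusted p = 0.297) and -0.07 against Ctrl cells (adjusted p = 0.802), neither of which was called.

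Farther out, 7 tested genes had ends within 2 Mb of SATB1, the pair above included. SATB1-AS1 was the single one called lower against each control, and none was called higher against both, beside 6.46% of all genes tested called higher and 5.25% called lower against both controls. The median log2 fold change of the 7 was -0.09 against parental and -0.05 against Ctrl cells, beside 0.01 for all genes tested in each comparison. The nearest tested gene past SATB1-AS1, RAB5A, which encodes a GTPase of early endosomes, lay 1.5 Mb away and had values of 0.09 against parental (adjusted p = 0.594) and 0.31 against Ctrl cells (adjusted p = 0.0403, but 0.0530 to 0.130 in 6 of 9 cases with 1 library left out). On the other side OXNAD1 had values of 0.17 (adjusted p = 0.0949) and -0.05 (adjusted p = 0.640). KAT2B, an acetyltransferase that binds SATB1 and lies 1.59 Mb from it, had a log2 fold change of -0.17 against parental (adjusted p = 0.618) and -0.36 against Ctrl cells (adjusted p = 0.236).

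**Figure D3:**
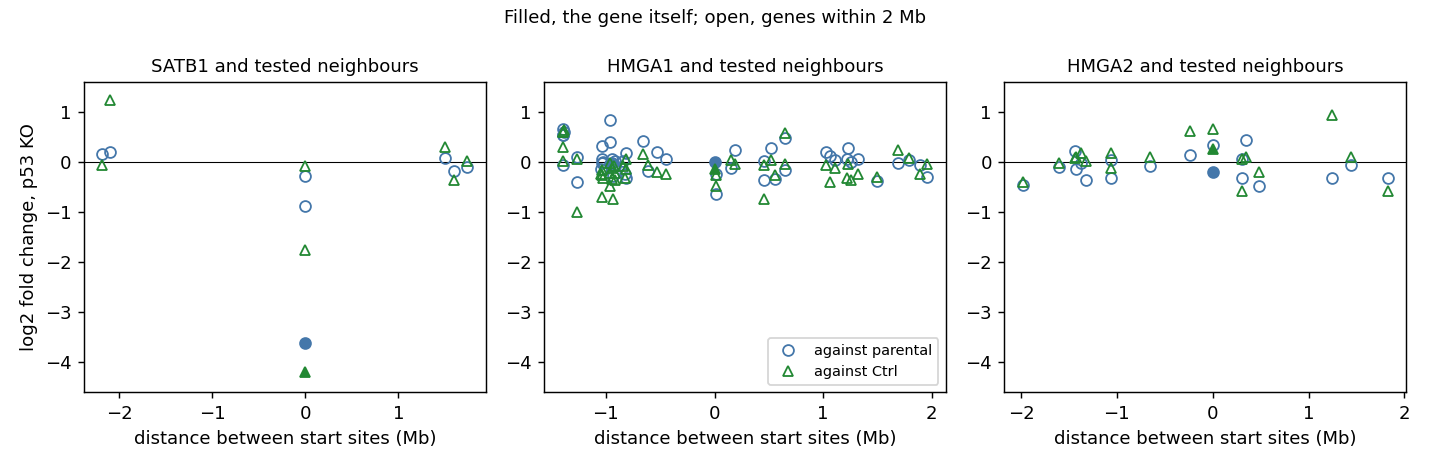
Log2 fold change of p53 KO cells against parental (circles) and Ctrl cells (triangles) for SATB1, HMGA1 and HMGA2 (filled) and tested genes whose nearest end lies within 2 Mb (open), by distance between start sites in Mb. MSRB3, a neighbour of HMGA2 with no count in Ctrl and p53 KO cells, is not drawn. SATB1 at -3.61 and -4.20 stands alone at the bottom of its panel with SATB1-AS1 above it.

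HMGA1 (ENSG00000137309) lies on chromosome 6 from 34236873 to 34246231 on the plus strand, with 6 exons in a canonical transcript of 1920 bases. Libraries held 1970, 1825 and 1922 CPM in parental, 2276, 2083 and 1949 CPM in Ctrl and 1823, 1804 and 2144 CPM in p53 KO cells. The 3 groups overlapped, and p53 KO replicate 3 exceeded all parental libraries while the other p53 KO libraries lay below all of them. The means were 1906 ± 74.0, 2103 ± 164 and 1924 ± 191 CPM (SD, n = 3 each).

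No difference in HMGA1 passed the test. The log2 fold change was 0.01 in p53 KO against parental cells (95% interval -0.17 to 0.20, adjusted p = 0.932), -0.13 against Ctrl cells (95% interval -0.32 to 0.06, adjusted p = 0.293) and 0.14 in Ctrl against parental cells (95% interval -0.05 to 0.33, adjusted p = 0.240). These intervals leave room for a small change in HMGA1 and none for a loss like that of SATB1. The sign against parental cells depended on single libraries, being -0.03 without parental replicate 2 and -0.07 without p53 KO replicate 3. HMGA1 has processed pseudogenes with closely similar sequence. The 8 listed in the file together held 57 to 92 counts per library, 0.125% to 0.194% of the HMGA1 count, and how reads were shared between them and HMGA1 is uncertain.

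HMGA2 (ENSG00000149948) lies on chromosome 12 from 65824460 to 65966291 on the plus strand, with 5 exons in a canonical transcript of 4117 bases. Libraries held 30.7, 28.1 and 28.6 CPM in parental, 16.7, 21.2 and 25.6 CPM in Ctrl and 25.1, 26.6 and 24.5 CPM in p53 KO cells. All parental libraries stood above all others, and the p53 KO libraries overlapped the upper end of the Ctrl libraries. The means were 29.1 ± 1.41, 21.1 ± 4.45 and 25.4 ± 1.11 CPM (SD, n = 3 each).

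The difference in HMGA2 that passed the test was between the control lines. HMGA2 was lower in Ctrl than in parental cells (log2 difference -0.46, SE 0.13, 95% interval -0.74 to -0.17, adjusted p = 0.0322). In p53 KO cells its value was -0.20 against parental (SE 0.13, 95% interval -0.48 to 0.09, adjusted p = 0.325) and 0.26 against Ctrl cells (SE 0.13, 95% interval -0.03 to 0.55, adjusted p = 0.163). Ctrl replicate 1 had the least HMGA2 of all libraries. Without it, the difference between the controls was -0.32 (adjusted p = 0.0240) and that of p53 KO against Ctrl cells was 0.12 (adjusted p = 0.334). Without Ctrl replicate 3, the Ctrl library with the most HMGA2, the value against Ctrl cells was 0.41 and passed the test (adjusted p = 0.0193). The call between the controls was lost without parental replicate 1, 2 or 3, Ctrl replicate 2 or p53 KO replicate 1, at adjusted p-values of 0.0501 to 0.114.

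Per kilobase of canonical transcript, HMGA1 was by far the most abundant of the 3 RNAs in every group. Its level was 993 ± 38.6, 1095 ± 85.5 and 1002 ± 99.4 CPM per kilobase (SD, n = 3 each) in parental, Ctrl and p53 KO cells. HMGA2 stood at 7.07 ± 0.341, 5.14 ± 1.08 and 6.17 ± 0.270 CPM per kilobase in the same order. SATB1 stood at 1.42 ± 0.0522, 2.13 ± 0.347 and 0.113 ± 0.0431 CPM per kilobase, which placed it last in each group.

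The balance between the HMGA genes was compared within libraries, where scaling between libraries has no part. For every 1000 HMGA1 counts there were 15.6, 15.4 and 14.9 HMGA2 counts in parental, 7.33, 10.2 and 13.1 in Ctrl and 13.8, 14.8 and 11.4 in p53 KO libraries. Ctrl replicate 1 had both the most HMGA1 and the least HMGA2. The mean log2 ratio of HMGA2 to HMGA1 was -6.24 ± 0.19 in p53 KO cells, -6.03 ± 0.04 in parental and -6.65 ± 0.42 in Ctrl cells (SD, n = 3 each). Against the 6 control libraries together, the p53 KO ratio differed by 0.10 (two-sided exact permutation test, p = 0.786, where 0.0119 is the smallest p that 3 against 6 libraries allow). Against parental cells alone it differed by -0.21 (exact permutation p = 0.1, the smallest that 3 against 3 allow) and against Ctrl cells alone by 0.42 (exact permutation p = 0.2).

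HMGA2 also has transcripts on its opposite strand, of which RPSAP52, a pseudogene-derived RNA, passed the filter with 8 to 22 counts per library. Its log2 fold change was 0.35 against parental (adjusted p = 0.426) and 0.66 against Ctrl cells (adjusted p = 0.104). Within 2 Mb of HMGA2, 19 genes were tested and none was called the same way against both controls, where the shares over all genes tested were 6.46% higher and 5.25% lower. The nearest on either side past RPSAP52 were RP11-221N13.3, with values of 0.14 and 0.63 against parental and Ctrl cells (adjusted p = 0.818 and 0.230), and LLPH, with values of 0.06 and 0.06 (adjusted p = 0.731 and 0.744). MSRB3, a methionine sulfoxide reductase gene that was picked out after its values were seen, had 11, 13 and 22 counts in parental libraries and none in any Ctrl or p53 KO library.

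Around HMGA1, at the edge of the major histocompatibility complex, 51 tested genes lay within 2 Mb. Of these 4 were called higher in p53 KO cells against both controls and 1 lower, to be read beside the 6.46% and 5.25% of all genes tested. The 4 were TAP1, PSMB9, its neighbour PSMB8-AS1, and TAF11. TAP1 carries peptides into the endoplasmic reticulum, PSMB9 is an immunoproteasome gene and TAF11 encodes a subunit of the general factor TFIID. TAP1 rose by 0.60 on the log2 scale against parental (SE 0.09, adjusted p = 0.00130) and by 0.64 against Ctrl cells (SE 0.09, adjusted p = 0.000405). PSMB9 rose by 0.55 and 0.61, PSMB8-AS1 by 0.66 and 0.61, and TAF11 by 0.49 and 0.59. RGL2 fell by 0.27 and 0.74. The RGL2 call against parental cells was lost without any 1 parental or p53 KO library (adjusted p-values of 0.0861 to 0.133) and the PSMB9 call there without any 1 parental library or p53 KO replicate 1 or 3 (0.0541 to 0.0775). The nearest tested gene after HMGA1 was C6orf1, with values of -0.23 against parental (adjusted p = 0.373) and -0.47 against Ctrl cells (adjusted p = 0.0465), a call that was lost in 7 of 9 cases with 1 library left out (0.0590 to 0.121). The nearest tested gene before HMGA1 was LEMD2, with values of 0.07 (adjusted p = 0.731) and -0.23 (adjusted p = 0.158).

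Lists of related genes were then read beside the members, as counts of genes called by the same test and limit. Genes named from a list without being called against both controls were picked after their values were seen. Without Ctrl replicate 1, the number of all genes called was 4944 rather than 2631 against parental and 5162 rather than 4240 against Ctrl cells. The counts of several lists were higher too, as given beside them, and are to be read beside that rise over all genes.

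Among relatives of SATB1 with a CUT domain, 3 of 6 were tested, and 1 was called lower against both controls, beside 5.25% of all genes tested. CUX1, a broadly expressed CUT homeobox factor on chromosome 7, held 104 to 122 CPM in the 6 control libraries and 69.2 to 72.8 CPM in p53 KO libraries, with no overlap. It fell by 0.65 against parental (SE 0.08, adjusted p = 0.000356) and by 0.67 against Ctrl cells (SE 0.08, adjusted p = 0.000121). ONECUT2 had values of -0.12 and 0.22, neither called, and 3 further members held at most 3 counts in any library.

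Of 15 further proteins with AT-hooks or ARID domains, all were tested and 1 was called the same way against both controls, lower, where 5.25% of all genes tested were lower against both. SETBP1, an AT-hook protein on chromosome 18 that stabilises SET, had 48, 44 and 29 counts in parental, 32, 62 and 53 in Ctrl and 11, 5 and 8 in p53 KO libraries. Its p53 KO libraries did not overlap the controls, and it fell by 2.36 against parental (SE 0.28) and by 2.62 against Ctrl cells (SE 0.27). SETBP1 passed the filter through the control libraries, where it was high. Its call enters the count above, but no p-value of these comparisons is given for it. ARID5B, a partner of a histone demethylase, rose against parental cells by 0.95, but Ctrl cells rose against parental cells as well, by 0.76. ELF3, an epithelial ETS factor with an AT-hook, was higher in Ctrl than in parental cells by 1.12 and lower in p53 KO than in Ctrl cells by -0.79. The median over the list was -0.16 against parental and -0.04 against Ctrl cells. Leaving out Ctrl replicate 1, 7 rather than 2 of these genes were called against parental cells, beside 4944 rather than 2631 of all genes.

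The other high mobility group proteins, which share a name with HMGA1 and HMGA2 and bind DNA or nucleosomes in other ways, were read next. All 10 HMGB, HMG20 and HMGN genes were tested and none was called the same way against both controls, beside 6.46% of all genes tested higher and 5.25% lower. HMGB1 held 504 to 527 CPM in parental, 549 to 588 CPM in Ctrl and 530 to 540 CPM in p53 KO libraries. HMGB2 was lower in p53 KO than in Ctrl cells by -0.35 (SE 0.06, adjusted p = 0.00205) and HMGB3 higher by 0.31 (SE 0.08, adjusted p = 0.00983). HMGN3 was higher in p53 KO than in parental cells by 0.34 (SE 0.10, adjusted p = 0.0468), but was not called without any 1 library other than Ctrl replicate 1 or 2, at adjusted p-values of 0.0503 to 0.155, nor with at least 10 counts in every library (0.0523). HMGN2, HMGB2 and HMG20B were called higher in Ctrl than in parental cells, by 0.24, 0.25 and 0.34, with the calls lost in 8, 4 and 7 of 9 cases with 1 library left out (adjusted p-values up to 0.152, 0.0759 and 0.131). HMGN1, HMGN4 and HMGN5 were called in none of the comparisons.

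Among 14 genes of CTCF and cohesin, the ring that extrudes chromatin loops, 2 were called higher against both controls, where 6.46% of all genes tested were, and none was called lower against parental or Ctrl cells, where 8.36% and 14.2% of all genes tested were. ESCO2, the acetyltransferase that locks cohesin during replication, held 24.6 to 33.7 CPM in the controls and 39.6 to 47.8 CPM in p53 KO libraries. It rose by 0.46 against parental (SE 0.12, adjusted p = 0.0222) and by 0.57 against Ctrl cells (SE 0.12, adjusted p = 0.00448). WAPL, which releases cohesin from DNA, rose by 0.40 (SE 0.12, adjusted p = 0.0389) and 0.64 (SE 0.12, adjusted p = 0.00190), from 91.6 to 146 CPM in the controls to 171 to 190 CPM. The WAPL call against parental cells was lost without any 1 parental or p53 KO library, at adjusted p-values of 0.0702 to 0.146. The ESCO2 call against parental cells was lost without any 1 parental library or p53 KO replicate 1 or 2, at 0.0672 to 0.0883. CTCF itself had values of -0.08 and 0.00, neither called. Without Ctrl replicate 1, 7 rather than 2 genes of the list were called against parental and 6 rather than 3 against Ctrl cells. Over all genes the numbers were 4944 rather than 2631 and 5162 rather than 4240.

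Of 8 condensin genes 1 was called lower against both controls, beside 5.25% of all genes tested. NCAPG2, a condensin II subunit, fell by 0.43 against parental (SE 0.08, adjusted p = 0.00400) and by 0.51 against Ctrl cells (SE 0.08, adjusted p = 0.000760). SMC4, a core subunit, fell against parental cells by 0.57 (SE 0.15, adjusted p = 0.0240) and had a value of -0.28 against Ctrl cells. Its call was lost without any 1 parental library or p53 KO replicate 1 or 3, at adjusted p-values of 0.0604 to 0.0962.

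Of 16 nuclear lamina and matrix genes, counted as 17 entries because MATR3 has 2 identifiers, 1 was called lower against both controls, beside 5.25% of all genes tested. SUN2, which ties the lamina to the cytoskeleton, held 205, 204 and 196 CPM in parental, 325, 290 and 275 CPM in Ctrl and 140, 138 and 144 CPM in p53 KO libraries. As for SATB1, the Ctrl libraries were the highest and the p53 KO libraries the lowest, without overlap. SUN2 fell by 0.52 against parental (SE 0.07, adjusted p = 0.000666) and by 1.08 against Ctrl cells (SE 0.07, adjusted p = 2.16e-06), and was higher in Ctrl than in parental cells by 0.56 (SE 0.07, adjusted p = 0.000472). Without Ctrl replicate 1 or Ctrl replicate 3, 3 rather than 1 of the list were called against parental cells, and likewise 3 by DESeq2. Over all genes the numbers in these 3 settings were 4944, 2979 and 2964 rather than 2631.

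**Figure D4:**
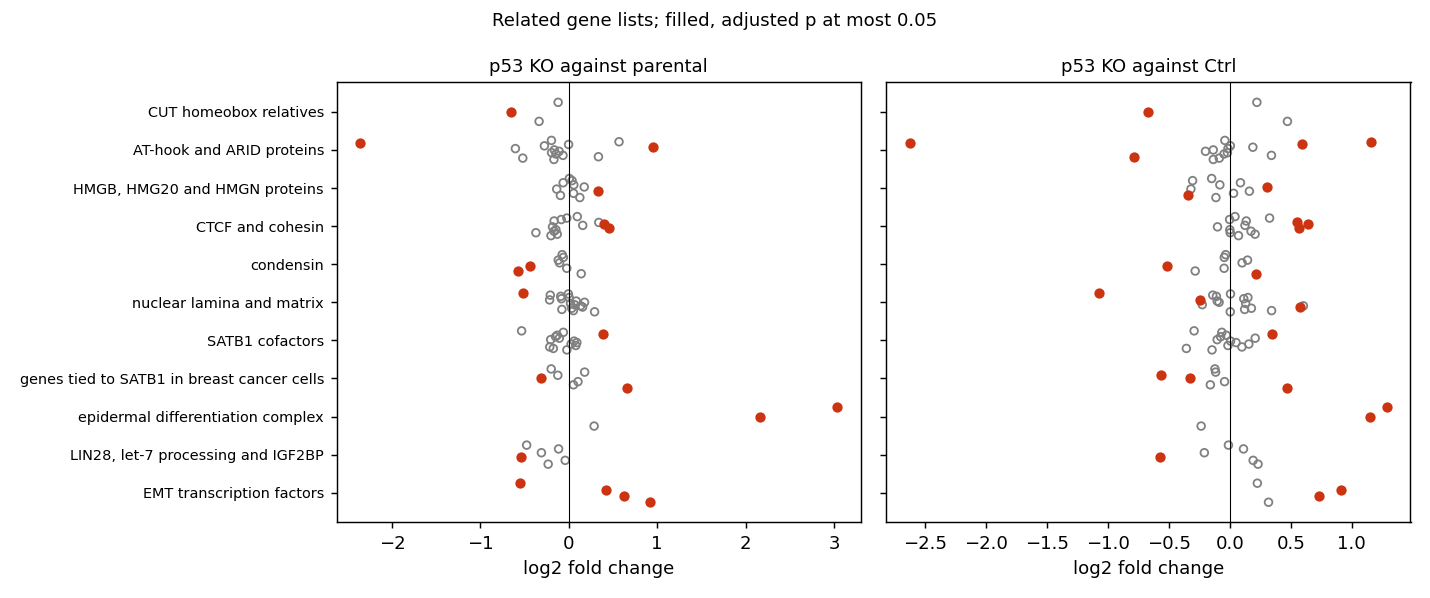
Log2 fold change of p53 KO cells against parental (left) and Ctrl cells (right) for each tested gene of 11 related lists; filled points passed the adjusted limit of 0.05 and open points did not. In most lists the open points near 0 outnumber the filled ones, and SETBP1 at -2.36 and -2.62 is the lowest point of the plot. SPRR1B, S100A9 and SETBP1 are drawn as filled points by the same limit, but each passed the filter through the groups where it was high. Their filling is therefore not to be read as a test. The horizontal axes of the panels differ in range.

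Of 14 cofactors of SATB1 (histone deacetylases, acetyltransferases, NuRD and ISWI remodellers, CTBP1, PML and beta-catenin) 1 was called against both controls, higher, beside 6.46% of all genes tested. PML, the scaffold of nuclear bodies, held 92.3 to 112 CPM in the controls and 128 to 133 CPM in p53 KO libraries. It rose by 0.39 against parental (SE 0.08, adjusted p = 0.00654) and by 0.35 against Ctrl cells (SE 0.08, adjusted p = 0.00753). The median over the list was -0.08 against parental and -0.02 against Ctrl cells. HDAC1 had values of -0.02 and -0.15, and HDAC2 0.09 and 0.05, none of them called. When Ctrl replicate 1 was left out, 4 rather than 1 of the cofactors were called against parental and 3 rather than 1 against Ctrl cells. Over all genes the numbers were 4944 rather than 2631 and 5162 rather than 4240.

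Of 9 genes tied to SATB1 in breast cancer cells 7 were tested, and 2 were called against both controls, 1 higher and 1 lower, beside 6.46% and 5.25% of all genes tested. S100A4, a calcium-binding protein of motile cells, rose by 0.66 against parental (SE 0.15, adjusted p = 0.0108) and by 0.47 against Ctrl cells (SE 0.15, adjusted p = 0.0356). CDH1, or E-cadherin, fell by 0.32 (SE 0.08, adjusted p = 0.0245) and 0.33 (SE 0.08, adjusted p = 0.0140). S100A4 held 33.0 to 38.1 CPM in p53 KO libraries, and Ctrl replicate 1, at 34.1 CPM, overlapped them. The S100A4 call against Ctrl cells was lost without any 1 library other than Ctrl replicate 1, at adjusted p-values of 0.0503 to 0.129, and the call against parental cells without parental replicate 3 (0.0519). The CDH1 call against parental cells was lost in 5 of 9 such cases (0.0527 to 0.0985) and against Ctrl cells in 2 (0.0564 to 0.0586). ERBB2, the receptor gene of this list, was lower in p53 KO than in Ctrl cells by -0.57 and higher in Ctrl than in parental cells by 0.44.

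The epidermal differentiation complex, a cluster on chromosome 1 that SATB1 is known to organise in epidermis, gave few counts in A431. Of its 28 listed genes, 25 failed the filter and held at most 20 counts in any library. SPRR1B, a cornified envelope protein, had 3, 6 and 7 counts in parental, 6, 12 and 15 in Ctrl and 29, 22 and 24 in p53 KO libraries. S100A9, a calgranulin, had 3, 5 and 3 counts, then 11, 18 and 9, then 32, 33 and 30. The p53 KO libraries were the highest for each of these genes. Both genes passed the filter through their p53 KO libraries, so no test of them is given. IVL, the other gene tested, held 0.692 to 0.995 CPM in parental, 1.12 to 1.37 CPM in Ctrl and 0.805 to 1.29 CPM in p53 KO libraries, and had log2 values of 0.29 against parental (adjusted p = 0.454) and -0.23 against Ctrl cells (adjusted p = 0.488).

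In the let-7 pathway that restrains HMGA2, the LIN28 genes, which block let-7 maturation, had no count in any library. Of 10 listed genes 6 were tested and 1 was called lower against both controls, beside 5.25% of all genes tested. IGF2BP2, an RNA-binding protein on chromosome 3 that is a classical HMGA2 target, held 226 to 267 CPM in the controls and 163 to 176 CPM in p53 KO libraries. It fell by 0.54 against parental (SE 0.08, adjusted p = 0.000908) and by 0.57 against Ctrl cells (SE 0.08, adjusted p = 0.000290), comparisons in which HMGA2 was not called. IGF2BP3 had values of -0.31 and -0.21 and DICER1 -0.48 and -0.01, none of them called. When Ctrl replicate 1 was left out, 3 rather than 1 of these genes were called in each p53 KO comparison. Over all genes the numbers were 4944 rather than 2631 against parental and 5162 rather than 4240 against Ctrl cells.

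Of 7 transcription factors of the epithelial-mesenchymal transition, to which HMGA2 and SATB1 have both been linked, 4 were tested and 2 were called higher against both controls, beside 6.46% of all genes tested. TWIST1 rose by 0.62 against parental (SE 0.14, adjusted p = 0.00927) and by 0.74 against Ctrl cells (SE 0.14, adjusted p = 0.00218), from 3.93 to 5.12 CPM in the controls to 6.01 to 8.09 CPM. SNAI2 rose by 0.42 (SE 0.10, adjusted p = 0.0131) and 0.92 (SE 0.10, adjusted p = 6.80e-05) and was lower in Ctrl than in parental cells by -0.49 (SE 0.10, adjusted p = 0.00758). Its call against parental cells was lost without parental replicate 1 or 3, at 0.0513 and 0.0577. SNAI1 fell against parental cells by 0.55 (SE 0.14, adjusted p = 0.0233), a call lost without any 1 parental or p53 KO library (adjusted p-values of 0.0568 to 0.0816) and by DESeq2 (0.0527), and had a value of 0.23 against Ctrl cells. SNAI1 was lower in Ctrl than in parental cells as well, by -0.77 (SE 0.15, adjusted p = 0.00500). ZEB2 rose against parental cells by 0.92 (SE 0.18, adjusted p = 0.00552) and had a value of 0.32 against Ctrl cells. Ctrl cells also had more ZEB2 than parental cells, by 0.60 (SE 0.19, adjusted p = 0.0468). That call was lost in 6 cases with 1 library left out (0.0613 to 0.147). ZEB1 held at most 5 counts.

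Blood cell markers were read because SATB1 is abundant in T cells. PTPRC and CD3E had no count in any library, and the summed level of the markers was 0.383 to 0.415 CPM in parental, 0.102 to 0.267 CPM in Ctrl and 0.951 to 1.11 CPM in p53 KO libraries. Most of the p53 KO level was LCK, a T cell kinase, with 28, 22 and 18 counts. The markers were thus near 0 everywhere and highest where SATB1 was lowest. Fibroblast markers summed to 2.38 to 4.42 CPM over all libraries, with DCN at 0, and endothelial markers to 0.383 to 1.16 CPM.

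The genes whose levels followed each member most closely were found by Pearson's r of log2 CPM over the 9 libraries, among 11499 genes, as a description without a test. For SATB1 they were C3orf52 (0.997), TMEM39A (0.996), LSG1 (0.995), RYK (0.992) and SPIDR (0.990). The first 4 lie on chromosome 3 between 112086335 and 194672463, far from SATB1, and SPIDR lies on chromosome 8. Such r values mostly reflect the step between p53 KO and control libraries, and the sizes of change were far apart, at -0.67, -0.42, -0.36, -0.59 and -0.33 on the log2 scale against parental cells beside -3.61 for SATB1. For HMGA1 the closest were PQLC1 (0.971), CHST14 (0.967), CBLC (0.961), MLF2 (0.959) and HDAC3 (0.958), on 5 chromosomes other than that of HMGA1. For HMGA2 they were CUL4A (0.995), MDM4 (0.990), ZNF280C (0.989), DDHD1 (0.988) and MYSM1 (0.987). These genes were picked for following HMGA2, which was itself lower in Ctrl than in parental cells. Calls of them in that comparison are therefore no separate result, and 9.69% of all genes tested were called lower there. Of the genes like HMGA2, MDM4, ZNF280C, DDHD1 and MYSM1 were called lower in Ctrl than in parental cells, by -0.70, -0.69, -0.52 and -0.89. Each of these 4 calls was lost without any 1 parental library or Ctrl replicate 2, at adjusted p-values of up to 0.0963, 0.124, 0.0927 and 0.0673. The 9 libraries share their groups and the low point of Ctrl replicate 1, which enter every one of these values.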

How the data were processed

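RNA was isolated from A431 parental (mutp53), Ctrl (mutp53) and p53 KO cells, and strand-specific poly(A) libraries were read as paired ends of 75 bp. The authors aligned reads to GRCh38 with STAR 2.5.1b, assigned them to genes of Ensembl release 85 using featureCounts, and deposited the counts without normalisation. Whole-number counts of 58051 genes were read here, 30587 of which had no count in any library. Groups came from the sample labels, and no library was left out.

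In R 4.3.3 with edgeR 4.0.16, genes were filtered by group with filterByExpr (minimum count 10), which left 14513, and libraries were scaled by TMM. A model with 1 mean per group over all 9 libraries was fitted, and contrasts were tested by its quasi-likelihood test (edgeR), with p-values adjusted by the Benjamini-Hochberg method over all genes tested. Genes were called at an adjusted p-value of at most 0.05. Adjusted p-values in the text come from this test. Standard errors follow from its F statistic, and 95% intervals use its degrees of freedom. The HMGA2 to HMGA1 ratio was compared by exact permutation tests. The script was tested on simulated data.

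The members, the 11 lists and the markers were chosen with earlier results of these data known. Named genes are the members, list genes called the same way against both controls, paralogues, antisense genes and pseudogenes of the members, the nearest tested neighbours, neighbours called against both controls, and the 5 genes most like each member. Results for some genes that the rule names are not reported here. Alternatives were DESeq2 1.42.0, its size factors, other filters, a replicate block, fits of only 2 groups, a fold threshold and each library left out. Positions come from GENCODE 44, which held 14397 of the genes tested, and upstream sequences from RefSeq. Depths cover counting error only. The study's immunoblots, imaging and qRT PCR were not analysed here.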

Additional observations from a re-analysis of the deposited data

Results flagged for a closer look

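In 12 of the named genes every Ctrl library lay on one side of the mean of the parental libraries and every p53 KO library on the other. Values of p53 KO against Ctrl cells are given for them. How many of all genes tested show this pattern was not counted, so the number 12 is no result about the named genes. Some genes were named because they were called in p53 KO cells against both controls, which favours this pattern. The same libraries picked the 12 genes, so the p-values describe the difference and are no separate test of it. SATB1 differed between these lines by a log2 fold change of -4.20, which was not tested because the gene was chosen for it. SETBP1 differed by -2.62, with no p-value given because it passed the filter through the control libraries. The p-values that follow are from the quasi-likelihood test of edgeR, adjusted by the Benjamini-Hochberg method. The other values were 0.64 for WAPL (adjusted p = 0.00190) and -1.08 for SUN2 (adjusted p = 2.16e-06). They were 0.92 for SNAI2 (adjusted p = 6.80e-05) and -1.76 for SATB1-AS1 (adjusted p = 0.000126). By the same test they were -0.35 for HMGB2 (adjusted p = 0.00205), 0.31 for HMGB3 (adjusted p = 0.00983), -0.57 for ERBB2 (adjusted p = 0.000144), -0.47 for C6orf1 (adjusted p = 0.0465), 0.59 for TAF11 (adjusted p = 0.000153) and -0.74 for RGL2 (adjusted p = 7.85e-05). The C6orf1 call was lost in 7 of 9 cases with 1 library left out.

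The Ctrl line itself differed from parental cells at the threshold in 7 of these genes, by 0.59 for SATB1, 0.56 for SUN2, -0.49 for SNAI2, 0.88 for SATB1-AS1, 0.25 for HMGB2, 0.44 for ERBB2 and 0.46 for RGL2. In the other 5 it did not pass, with values of 0.27 for SETBP1 (adjusted p = 0.357), -0.25 for WAPL (adjusted p = 0.153), -0.13 for HMGB3 (adjusted p = 0.213), 0.25 for C6orf1 (adjusted p = 0.268) and -0.10 for TAF11 (adjusted p = 0.325). The departures of Ctrl and of p53 KO cells share the parental libraries. Ctrl cells kept mutant p53, and in p53 KO cells single-colony growth and the p53 edit cannot be told apart.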

How the results depend on the processing

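The log2 fold change of SATB1 in p53 KO cells stayed between -3.94 and -3.44 against parental and between -4.53 and -4.03 against Ctrl cells with each library left out, and between -3.63 and -3.61 and between -4.21 and -4.19 under the other alternatives. The number of genes called against parental cells was 2631, with 1568 to 4944 when 1 library was left out, 4831 with only the 2 groups compared and 283 with a log2 fold change above 1.5 or below -1.5. Against Ctrl cells it was 4240, with 3100 to 5162 and, with the fold threshold, 477. Between the controls it was 2943, with 1379 to 4375, 1869 with only the 2 groups and 281 with the fold threshold. Called the same way against both controls were 1699, with 1176 to 2899. With the replicate number as a block, 1691 genes were called between the controls, SATB1 there was 0.58 (adjusted p = 0.0527) and HMGA2 -0.47 (adjusted p = 0.0639), and WAPL and CDH1 lost their calls against parental cells (adjusted p = 0.0868 and 0.0720). Equal numbers did not pair the libraries, since their deviations correlated at -0.35 to 0.04 against -0.22 to 0.39 for unequal numbers. With only the 2 groups compared, HMGA2 between the controls was -0.46 (adjusted p = 0.0709) and S100A4 against Ctrl cells 0.46 (adjusted p = 0.0903). Leaving out 1 library, SATB1 between the controls was 0.50 to 0.71, HMGA2 there -0.61 to -0.32, HMGA2 against Ctrl cells 0.12 to 0.41, HMGA1 against parental cells -0.075 to 0.057, and the HMGA2 to HMGA1 ratio of p53 KO cells against the 6 controls -0.046 to 0.21, negative without Ctrl replicate 1. Against parental cells alone that ratio was -0.21. Of 1012 values for named genes under alternatives 858 kept their call, 154 lost it and 0 changed direction. Of 495 list counts 115 moved by over 1.5 times, 65 of them down, most from counts of 1 to 3. The causes were not tested.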
